A study of Mus musculus with 9 samples.

Results

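The comparison described here sets mouse spinal cord 3 days after complete transection against cord of day 0, gene by gene, in level and in change. Its members are 6 of the 9 libraries of the series, 3 titled as day 3 and 3 titled N. The series, which measured RNA after complete transection of the cord at thoracic level T9, names 0, 3 and 21 days, and the N libraries were taken as day 0 because the other titles carry their day. All libraries were described as mouse spinal cord tissue and carried no named allele or drug. The sources used here do not give strain, sex, age, the length of cord taken or the number of animals per library. No label names a sham-operated group, so injury, surgery and handling cannot be told apart. No label says that libraries of a group came from separate animals, and p-values therefore speak of the spread among these libraries alone, part or all of which may be technical.

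Transection cuts the long axons of the cord, kills cells at the cut and tears vessels and meninges. In the days that follow, astrocytes and microglia react, blood leukocytes enter, debris is digested in lysosomes, and vessels, fibroblasts and glia begin to divide and to lay down matrix. Neurons below and above the cut lose inputs, and axons begin to degenerate away from it.

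Total gene counts ranged from 15763769 to 24022923 per library at day 0 and from 14916863 to 17930431 at day 3. Log2 levels of library pairs correlated at 0.985 to 0.989 within day 0, at 0.987 to 0.989 within day 3 and at 0.890 to 0.895 between the 2 days. Day 0 replicate 1 stood apart, with the highest total and with 6.93% of its counts in mitochondrial-encoded genes against 9.02 to 9.70% in the other 5 libraries. Counting noise alone would put 5% of genes past the 5% point of a chi-square comparison of 2 libraries. The day 3 pairs put 16.8 to 18.6% there, day 0 replicates 2 and 3 put 16.8%, and the pairs with day 0 replicate 1 put 44.7 and 44.8%. The day 3 libraries, and day 0 replicates 2 and 3, were thus closer to each other than day 0 replicate 1 was to its group, yet differed by more than sampling noise and were kept as separate samples. Day 21 replicate 2 also stood apart from its group (69.1 and 70.3% of genes past that point), which matters here because all 9 libraries shared 1 estimate of spread.

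Of 34745 genes in the table, 16494 had enough counts to be tested. edgeR called 4090 higher (24.8%) and 3217 lower (19.5%) at day 3, 44.3% in either direction, at a Benjamini-Hochberg adjusted p under 0.05. Without day 21 replicate 2 the counts were 5354 and 4891. The sizes of change were not symmetric. At 2-fold or more 2630 genes were called higher (15.9%) and 1084 lower (6.57%), at 4-fold or more 1371 and 54, and at 8-fold or more 685 and 6. The median log2 fold change was 1.37 among genes called higher, -0.82 among genes called lower and 0.01 over all tested genes. The day 3 libraries all lay above the day 0 libraries for 6179 genes and all below for 4954, and the groups overlapped for 5361.

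**Figure D1:**
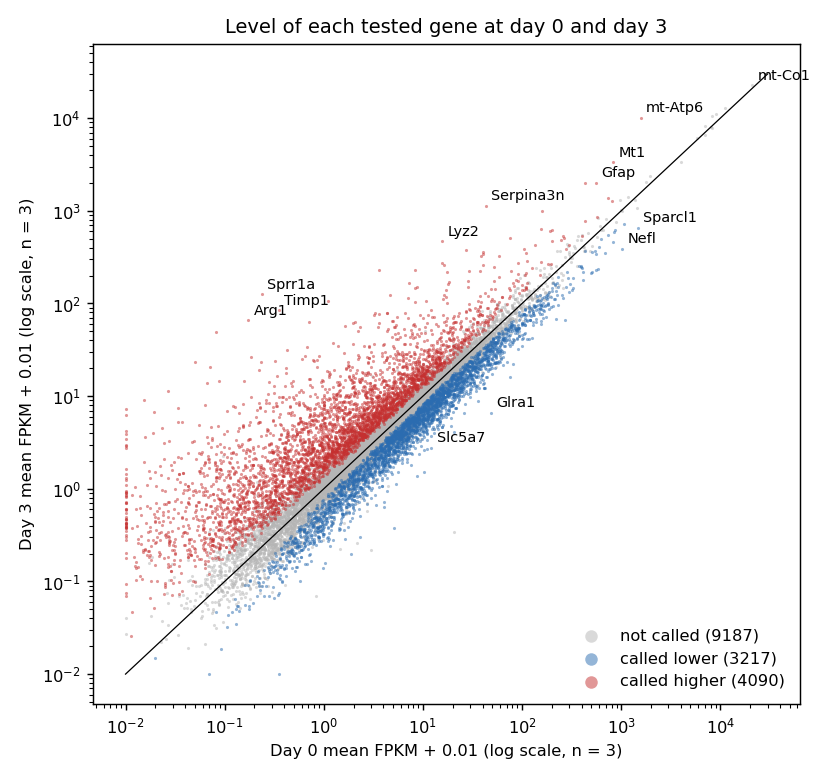
Mean level of each tested gene at day 0 (horizontal) and day 3 (vertical), in FPKM + 0.01 on log axes, with 3 libraries per mean. Red points (4090) were called higher and blue points (3217) lower, and the red cloud spreads further from the diagonal than the blue one.

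FPKM, a count scaled by gene length and by library total, allows levels of different genes to be set side by side. The share of genes called differed between classes of level. Among 3788 genes with a mean under 1 FPKM, 29.7% were called higher and 11.6% lower, whereas among 299 genes between 100 and 1000 FPKM 20.4% were called higher and 37.1% lower. The classes between them had 24.8% higher and 18.5% lower at 1 to 10 FPKM, and 20.3% higher and 28.4% lower at 10 to 100 FPKM. The 24 genes at 1000 FPKM or more went against this order, with 6 higher and 1 lower. In terms of detection, 878 genes lay under 1 FPKM in every day 0 library and at or above it in every day 3 library, and 213 genes did the opposite. Protein-coding genes were called higher more often than lower (26.1 and 19.8% of 15045), and long intergenic RNAs lower more often than higher (22.2 and 10.9% of 311). The median length of genes called higher by 2-fold or more was 4.40 kb, that of genes called lower by 2-fold or more 5.24 kb, and that of all tested genes 5.01 kb.

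**Figure D2:**
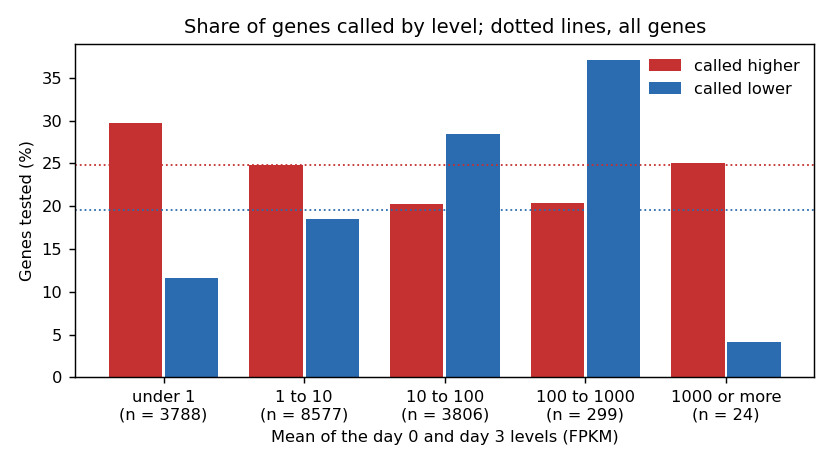
Percentage of tested genes called higher (red) and lower (blue) at day 3 in 5 classes of mean level (FPKM), with the number of genes per class below each pair and dotted lines at the values for all genes (24.8 and 19.5%). The red bars stand at 29.7, 24.8, 20.3 and 20.4% and the blue bars rise from 11.6 to 37.1% over the first 4 classes. The class at 1000 FPKM or more, with 24 genes, has 6 higher and 1 lower.

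The summed gain was held by fewer genes than the summed loss, to an extent that depended on 1 gene. Summed over called genes, levels rose by 52743 FPKM and fell by 31333 FPKM. The FPKM sum over all genes was not fixed. It was 304871 ± 2429 at day 0 and 336652 ± 1213 at day 3 (SD, n = 3), so gain and loss need not balance. The first 50% of the gain was held by 43 genes and the first 50% of the loss by 170, and the 10 largest changes held 34.3% of the gain and 12.8% of the loss. The mitochondrial gene mt-Atp6, whose value is uncertain, held 16.2% of the gain, and without it the first 50% was held by 85 genes and the 10 largest changes held 22.6%. The 100 most abundant genes of each library took 46.1% ± 2.86 of summed FPKM at day 0 and 49.1% ± 0.24 at day 3 (SD, n = 3). The day 0 shares were 42.8, 47.7 and 47.7% and the day 3 shares 48.9, 49.4 and 49.0%, so the groups did not overlap. An exact two-sided permutation test gave p = 0.1, the smallest that 3 against 3 libraries allow. Without day 0 replicate 1, the low value, the difference was 1.38 rather than 3.03 percentage points.

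Among the 100 genes with the highest mean level over both days, 22 rose and 26 fell, and 25 genes in the day 3 top 100 were outside it at day 0. Serpina3n moved from rank 912 to 22, Lyz2 from 2599 to 56, and Spp1, the secreted matrix and immune protein osteopontin, from 1519 to 71. Others that entered were the cathepsin genes Ctsd, Ctsb and Ctsl, the lipid carriers Apod and Apoe, the complement genes C1qa and C1qb, the ferritin light chain gene Ftl1 and the major histocompatibility light chain gene B2m.

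Serpina3n, a secreted inhibitor of serine proteases made by reactive astrocytes, had 39.5, 44.8 and 44.6 FPKM at day 0 and 1149, 1161 and 1109 FPKM at day 3. All day 3 libraries were far above all day 0 libraries (log2 fold change 4.67, SE 0.11, edgeR adjusted p = 3.33e-08). Gfap, the intermediate filament of astrocytes, had 539, 557 and 562 FPKM at day 0 and 2015, 2003 and 2019 FPKM at day 3. The 3 values within each day lay within a few per cent of each other and the days did not overlap (log2 fold change 1.81, SE 0.10, edgeR adjusted p = 1.05e-06). Lyz2, the lysozyme of macrophages and neutrophils, had 16.8, 16.2 and 14.1 FPKM at day 0 and 459.6, 471 and 475 FPKM at day 3, again without overlap (log2 fold change 4.85, SE 0.20, edgeR adjusted p = 2.35e-07). Lgals1, a secreted galectin, rose from 75.1 ± 19.8 to 506 ± 17.3 FPKM and Apod from 154 ± 18.6 to 631 ± 18.3 FPKM (SD, n = 3). Ctsd, the lysosomal aspartic protease, rose from 160.4 ± 9.25 to 998 ± 12.8 FPKM, with 34.4% of its exon bases also in another annotated gene.

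The largest losses in FPKM included those of neuronal and synaptic transcripts and of Sparcl1, a matrix glycoprotein of astrocytes. Sparcl1 had 1308, 1539 and 1538 FPKM at day 0 and 637, 676 and 655 FPKM at day 3, with every day 3 library below every day 0 library (log2 fold change -1.21, SE 0.12, edgeR adjusted p = 4.16e-05). The light, medium and heavy neurofilament genes, which build the core of large axons, fell together. Nefl had 1016, 1031 and 1037 FPKM at day 0 and 391, 391 and 391 FPKM at day 3 (log2 fold change -1.45, SE 0.08, edgeR adjusted p = 9.80e-07), although 32.8% of its exon bases lie in another annotated gene as well. Nefm fell from 578 ± 9.6 to 236 ± 1.45 FPKM and Nefh from 559.5 ± 48 to 232 ± 0.554 FPKM. Also among the 10 largest losses were Cplx1, a clamp of synaptic vesicle release (835 to 458 FPKM), the tubulin Tubb4a (1061 to 718 FPKM), the neuronal elongation factor Eef1a2 (680.3 to 350.1 FPKM), App (845 to 588 FPKM) and the sodium pump subunit Atp1b1 (507 to 217 FPKM). In bulk tissue, fewer cells of a type and less RNA per cell cannot be told apart.

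**Figure D3:**
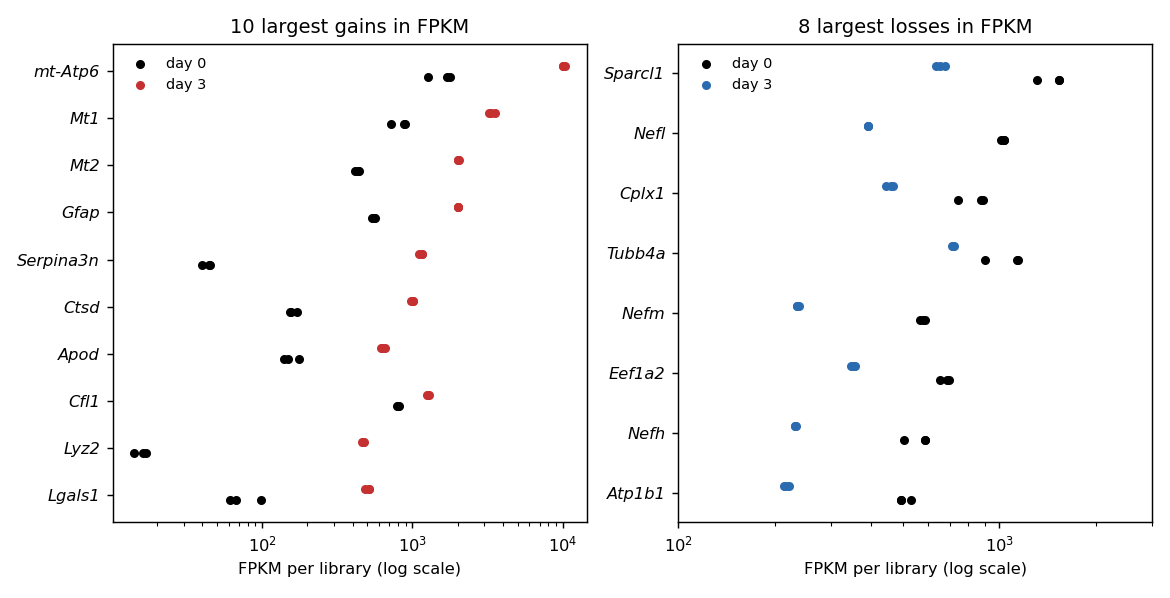
FPKM of each library (log scale) for the 10 named genes with the largest gain in mean FPKM (left, red at day 3) and the 8 with the largest loss (right, blue at day 3), with day 0 in black. The day 3 points lie on 1 side of the day 0 points for all genes shown, and Serpina3n and Lyz2 are the furthest apart. The call of Cfl1 was lost without day 0 replicate 1, day 0 replicate 2, day 3 replicate 1 or day 3 replicate 3, with an edgeR adjusted p of up to 0.0821.

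The largest gain has a limit of its own. mt-Atp6, a mitochondrial-encoded subunit of ATP synthase, had 1264, 1766 and 1708 FPKM at day 0 and 10023, 10419 and 9979 FPKM at day 3 (log2 fold change 2.62, SE 0.50, edgeR adjusted p = 0.00232). Of the other 12 mitochondrial protein genes, only mt-Nd6 was called, and it fell from 119 to 83.2 FPKM; mt-Atp8, whose sequence overlaps mt-Atp6, had means of 9104 and 11134 FPKM and was not called. A near-identical copy of mt-Atp6 in the chromosome 1 pseudogene Gm10925 had 886, 976 and 1049 FPKM at day 0 and 1273, 1341 and 1341 FPKM at day 3 and was not called. The sources used here do not say how reads were divided among such copies, and the mt-Atp6 value is uncertain.

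The metallothioneins, small cysteine-rich proteins that bind zinc and copper, gave the largest gains in FPKM among called nuclear genes. Mt1 and Mt2 are induced by metals, glucocorticoids and cytokines, and Mt3 is the form of neurons. Mt1 had 725, 875 and 892 FPKM at day 0 and 3551, 3315 and 3218 FPKM at day 3 (log2 fold change 1.96, SE 0.30, edgeR adjusted p = 6.82e-04). Mt2 had 416, 438 and 434 FPKM at day 0 and 2038, 2011 and 2013 FPKM at day 3 (log2 fold change 2.18, SE 0.30, edgeR adjusted p = 3.38e-04), with 73.5% of its exon bases in another annotated gene. The groups of both genes were apart, and the summed level of the family went from 1850 ± 29.5 to 6214 ± 189 FPKM (SD, n = 3). Mt3 had 681, 532 and 555 FPKM at day 0 and 834, 838 and 824 FPKM at day 3 and was not called (log2 fold change 0.45, SE 0.32, edgeR adjusted p = 0.294). Their promoters (250 bases before to 50 after the start, from RefSeq on GRCm38.p6) are shown because the metal response element, the site of the zinc-sensing factor Mtf1, is a known feature of this family. The capitals mark its core, TGCACNC or TGCGCNC, on either strand. The windows are chr8:94178839-94179138, chr8:94172368-94172667 and chr8:94152357-94152656, all on the + strand.
Mt1: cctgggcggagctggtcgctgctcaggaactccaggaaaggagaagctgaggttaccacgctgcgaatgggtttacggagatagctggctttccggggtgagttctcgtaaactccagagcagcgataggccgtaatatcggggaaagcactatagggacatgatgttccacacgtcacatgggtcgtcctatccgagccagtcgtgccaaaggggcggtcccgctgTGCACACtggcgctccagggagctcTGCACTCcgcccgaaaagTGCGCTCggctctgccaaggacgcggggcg
Mt2: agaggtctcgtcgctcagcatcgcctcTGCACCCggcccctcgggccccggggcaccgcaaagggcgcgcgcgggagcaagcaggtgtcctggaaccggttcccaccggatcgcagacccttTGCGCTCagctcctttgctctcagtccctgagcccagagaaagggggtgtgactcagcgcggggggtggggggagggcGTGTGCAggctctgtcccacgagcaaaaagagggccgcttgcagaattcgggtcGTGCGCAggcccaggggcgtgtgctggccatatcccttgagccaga
Mt3: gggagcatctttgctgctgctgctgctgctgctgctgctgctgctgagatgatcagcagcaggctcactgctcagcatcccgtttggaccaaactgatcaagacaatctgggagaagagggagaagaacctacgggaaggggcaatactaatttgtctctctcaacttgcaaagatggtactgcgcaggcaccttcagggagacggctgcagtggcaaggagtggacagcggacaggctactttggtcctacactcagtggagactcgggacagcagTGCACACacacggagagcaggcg
The core occurred 3 times in the Mt1 window, 4 times in the Mt2 window and once in the Mt3 window. Of 32851 promoter windows of the same length, 25.7% held it at least once. A match describes letters and not a bound site.

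Of 22 tested zinc transporters 6 rose (27.3%) and 5 fell (22.7%), shares near those of all tested genes (24.8 and 19.5%). Without day 21 replicate 2, 10 rose. Slc39a1, an importer, rose from 17 ± 0.333 to 64.8 ± 2.06 FPKM (log2 fold change 1.87, SE 0.12, edgeR adjusted p = 2.47e-06), and Slc39a14, an importer of zinc and iron, from 2.74 ± 0.113 to 9.71 ± 0.878 FPKM. Slc39a12 fell from 37.2 ± 1.25 to 19.6 ± 0.322 FPKM and the synaptic vesicle zinc loader Slc30a3 from 14.1 ± 1.37 to 8.76 ± 0.599 FPKM.

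Genes of the dividing cell rose from low levels. Of 37 tested genes of replication licensing and the replication fork, 25 rose (67.6%, beside 24.8% of all tested genes) and 12 did not pass the test, with a median log2 fold change of 0.86. All 6 genes of the MCM2 to MCM7 helicase, which unwinds DNA at the fork, rose, from a summed 11.4 to 37.3 FPKM. The 5 tested origin recognition genes, Orc2 to Orc6, were not called and had a median of -0.05; their summed level was 16.4 FPKM at day 0 and 18.8 FPKM at day 3. Mcm5 had 1.57, 1.76 and 2.04 FPKM at day 0 and 8.82, 9.79 and 10.4 FPKM at day 3 (log2 fold change 2.38, SE 0.20, edgeR adjusted p = 1.40e-05). Mcm6 had 1.37, 1.48 and 1.6 FPKM at day 0 and 6.88, 6.91 and 7.24 FPKM at day 3 (log2 fold change 2.19, SE 0.12, edgeR adjusted p = 1.28e-06). The groups of both genes were well apart. Rrm2, the ribonucleotide reductase subunit that supplies deoxynucleotides, rose from 0.509 ± 0.0472 to 8.53 ± 0.838 FPKM, and Tk1, thymidine kinase, from 0.0568 ± 0.00318 to 1.42 ± 0.0858 FPKM. Against these stood Cdkn1a, the cell cycle inhibitor p21, which rose from 12.2 ± 0.568 to 71.1 ± 1.32 FPKM, and Cdkn2a, which had no count at day 0 and 90 counts at day 3, at least 35.2-fold more.

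Kinesins, the motors that walk along microtubules, split by role. Of 39 tested, 14 rose (35.9%) and 12 fell (30.8%), beside 24.8 and 19.5% of all tested genes. The 12 kinesins of the mitotic spindle (Kif11, Kif14, Kif15, Kif18a, Kif18b, Kif20a, Kif20b, Kif22, Kif23, Kif2c, Kif4 and Kifc1) all rose, with a median log2 fold change of 4.36, from a summed 1.46 to 24.5 FPKM. The remaining 27, among them the axonal cargo motors, had 2 that rose, 12 that fell and a median of -0.57, and went from 1087 to 604 FPKM. This division of the family was made after its values were seen, and several spindle kinesins passed the count filter only through libraries after day 0, which favours a call as higher. Kif18b, a spindle microtubule depolymerase, had 0.0225, 0.12 and 0.0306 FPKM at day 0 and 3.05, 3.49 and 2.91 FPKM at day 3 (log2 fold change 5.80, SE 0.44, edgeR adjusted p = 8.43e-06). Kif23, which acts in the separation of daughter cells, had 0.0486, 0.0741 and 0.116 FPKM at day 0 and 2.98, 2.61 and 3.49 FPKM at day 3 (log2 fold change 5.20, SE 0.30, edgeR adjusted p = 1.60e-06). Both were close to 0 in each day 0 library and above 2.6 FPKM in each day 3 library. Kif5a, the heavy chain of the neuronal transport motor, had 410.5, 417 and 415 FPKM at day 0 and 179, 179.6 and 177 FPKM at day 3 (log2 fold change -1.27, SE 0.17, edgeR adjusted p = 2.95e-04), and Kif5c fell from 104 ± 2.29 to 46.5 ± 0.994 FPKM. All day 3 values of both were under those of day 0.

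Promoters of 2 spindle kinesins and 2 MCM genes are printed to show the elements that are known to accompany these expression programmes. In Kif18b (chr11:102925075-102925374, - strand) and Kif23 (chr9:61946750-61947049, - strand), the capitals mark TTTGAA, the cell cycle homology region of genes expressed in G2 and mitosis, and CCAAT, the NF-Y box. In Mcm5 (chr8:75109259-75109558, + strand) and Mcm6 (chr1:128359656-128359955, - strand) they mark the E2F cores TTCCCGC and TTGGCGC of genes expressed at the start of S phase. Each motif was sought on both strands.
Kif18b: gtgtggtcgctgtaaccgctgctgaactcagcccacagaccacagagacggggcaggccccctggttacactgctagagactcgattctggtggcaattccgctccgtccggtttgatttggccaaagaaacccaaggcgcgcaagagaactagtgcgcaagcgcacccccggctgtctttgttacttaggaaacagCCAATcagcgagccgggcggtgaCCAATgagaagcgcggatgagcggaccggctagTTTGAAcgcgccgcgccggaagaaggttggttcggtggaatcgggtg
Kif23: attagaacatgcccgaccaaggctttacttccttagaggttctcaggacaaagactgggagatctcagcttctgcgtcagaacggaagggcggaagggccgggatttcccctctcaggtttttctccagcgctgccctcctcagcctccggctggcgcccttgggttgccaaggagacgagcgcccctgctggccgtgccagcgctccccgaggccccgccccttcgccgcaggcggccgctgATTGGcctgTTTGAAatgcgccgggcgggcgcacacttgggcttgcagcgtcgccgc
Mcm5: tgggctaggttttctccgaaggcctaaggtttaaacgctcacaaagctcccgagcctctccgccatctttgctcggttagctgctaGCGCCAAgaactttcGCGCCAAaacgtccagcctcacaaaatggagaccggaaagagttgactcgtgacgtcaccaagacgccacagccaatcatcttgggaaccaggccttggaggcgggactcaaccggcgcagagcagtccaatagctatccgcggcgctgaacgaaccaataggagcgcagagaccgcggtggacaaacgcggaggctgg
Mcm6: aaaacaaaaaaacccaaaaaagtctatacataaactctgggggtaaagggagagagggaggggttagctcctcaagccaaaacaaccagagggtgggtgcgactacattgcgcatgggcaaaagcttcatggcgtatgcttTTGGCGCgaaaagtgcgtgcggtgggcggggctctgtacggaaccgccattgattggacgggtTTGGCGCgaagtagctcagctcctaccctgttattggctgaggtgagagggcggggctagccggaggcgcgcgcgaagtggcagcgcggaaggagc
Among kinesins called higher, 10 of 13 promoter windows held TTTGAA, among those called lower 1 of 11, and 17.9% of all 32851 windows did. CCAAT occurred in 8 of 13 and 5 of 11, and in 37.4% of all windows. The E2F core occurred in 13 of 23 windows of replication genes called higher and in 6 of 14 windows of those not called, against 6.81% of all windows. The E2F core was thus present among replication genes of both kinds, and these counts describe letters in a window.

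**Figure D4:**
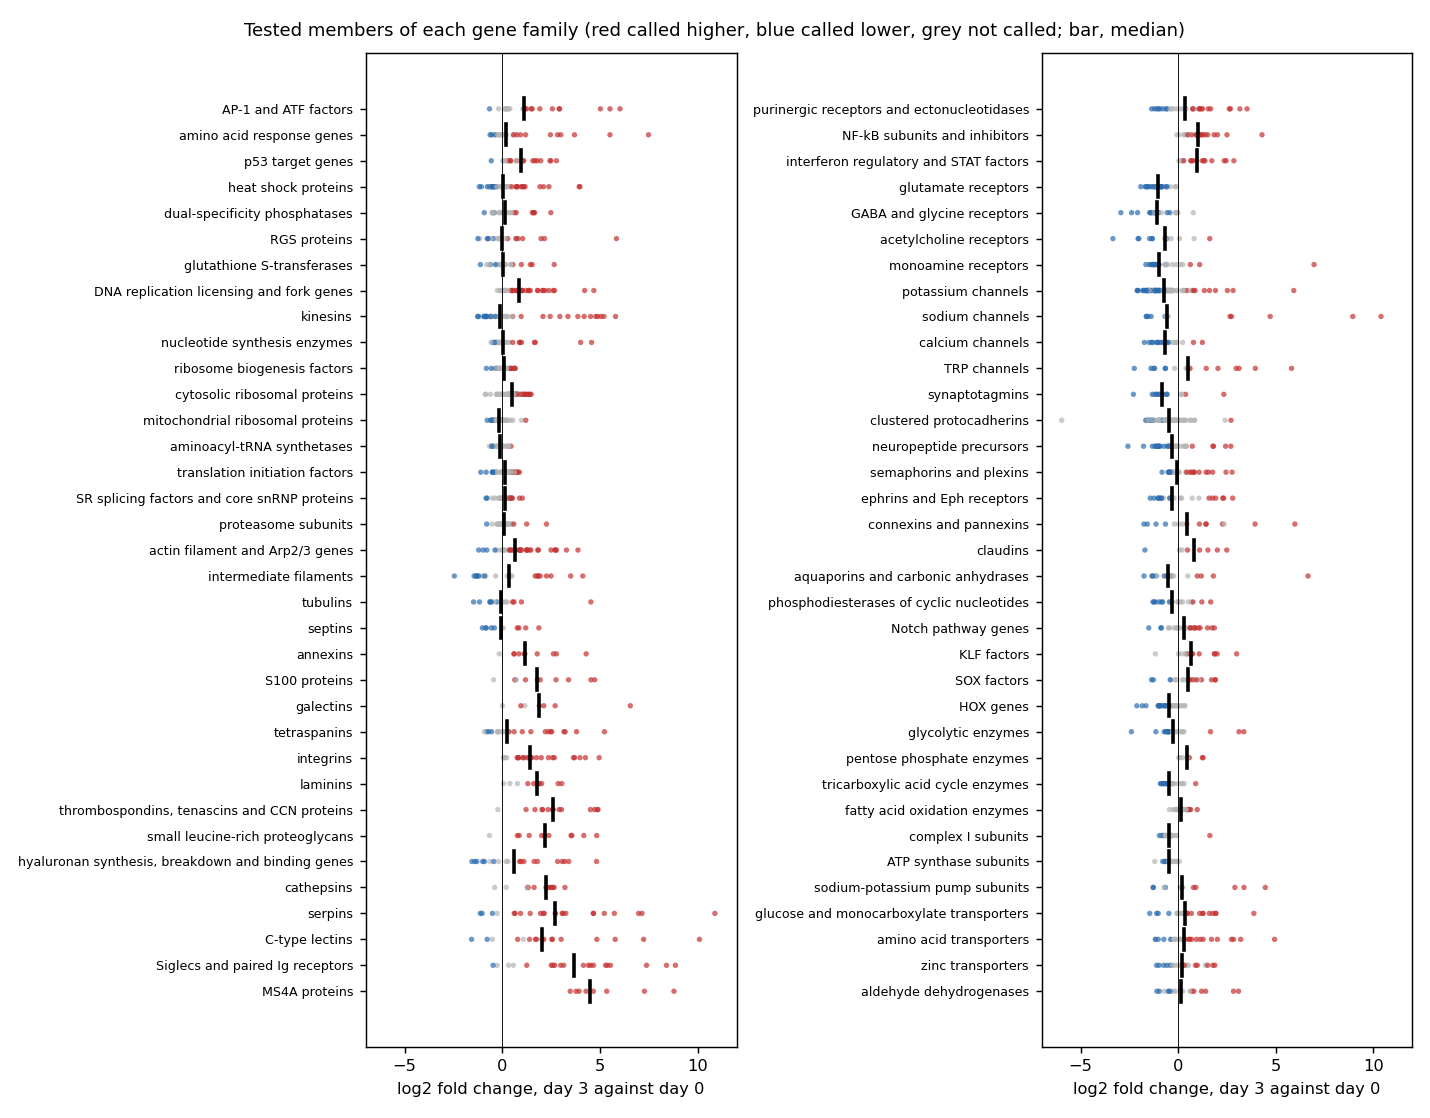
Log2 fold change (day 3 against day 0) of the tested members of each gene family with 5 or more tested members, by role. Points are genes (red called higher, blue called lower, grey not called) and black bars are family medians. The medians of integrins, laminins, cathepsins, serpins and the immune receptor families lie to the right of 0, those of glutamate, GABA and glycine receptors and of potassium and calcium channels to the left, and kinesins, intermediate filaments and sodium channels spread to both sides.

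Immediate stress factors rose to moderate levels. Of 22 tested AP-1 and ATF factors 12 rose, all by 2-fold or more, with a family median of 1.13. Counts of called members in this and the following paragraphs stand beside 24.8% higher and 19.5% lower over all tested genes. Atf3, a marker of injured neurons and stressed cells, had 0.633, 0.272 and 0.31 FPKM at day 0 and 20.8, 19.8 and 19.3 FPKM at day 3 (log2 fold change 5.51, SE 0.26, edgeR adjusted p = 5.53e-07). Fosl1 rose from 0.113 ± 0.0478 to 7.87 ± 0.424 FPKM, with 57.2% of its exon bases in another gene. Atf4, the most abundant member and the main factor of the amino acid response, had 86.4, 75.9 and 76.8 FPKM at day 0 and 98, 93.4 and 94.1 FPKM at day 3 and was not called (log2 fold change 0.20, SE 0.18, edgeR adjusted p = 0.387), while its known target Gdf15 went from 1 count over the 3 day 0 libraries to 225 at day 3, a ratio of 264 (95% interval 46.9 to 10469, counting error only). Of 20 tested p53 target genes 14 rose. Tnfrsf10b, a death receptor, rose from 0.367 ± 0.135 to 2.06 ± 0.0851 FPKM and Fas from 1.2 ± 0.369 to 4.94 ± 0.499 FPKM, and Zmat3 fell from 6.29 ± 1.18 to 4.39 ± 0.0406 FPKM.

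Heat shock proteins, the chaperones of misfolded proteins, changed in both directions: 13 of 40 rose and 12 fell. The small heat shock protein Hspb1 rose from 16.3 ± 1.82 to 258 ± 6.49 FPKM (log2 fold change 3.94, SE 0.27, edgeR adjusted p = 4.56e-06), and its processed copy Hsp25-ps1 was counted at 16.2, 17.5 and 13.4 FPKM at day 0 and 291, 268 and 270.5 FPKM at day 3, so both values are uncertain. Hsp90ab1, the most abundant member, had 292, 317 and 311 FPKM at day 0 and 311, 306 and 307 FPKM at day 3 and was not called. The large chaperones Hsph1 (from 20.8 ± 2.75 to 10.2 ± 1.03 FPKM) and Hspa4l (from 12 ± 0.374 to 5.48 ± 0.271 FPKM) fell. Of 22 tested dual-specificity phosphatases 7 rose (31.8%, beside 24.8% of all tested genes) and 3 fell (13.6%, beside 19.5%). The other 12 were not called, and the family median was 0.12. Among feedback phosphatases of MAP kinases, Dusp5 rose from 1.31 ± 0.0941 to 7.58 ± 0.499 FPKM (22.1% of its exon bases lie in another gene), Dusp6 from 7.29 ± 0.44 to 22 ± 1.2 FPKM and Dusp1 from 4.25 ± 0.497 to 13.4 ± 1.65 FPKM, and Dusp8 fell from 21.9 ± 0.995 to 11.9 ± 0.0792 FPKM.

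In the cytoskeleton, genes of actin filaments rose widely and those of axonal filaments fell. Of 41 tested actin filament and Arp2/3 genes, 26 rose and 4 fell. Arpc1b, a subunit of the Arp2/3 nucleator, had 3.81, 2.54 and 2.64 FPKM at day 0 and 30.7, 26 and 34 FPKM at day 3 (log2 fold change 3.29, SE 0.20, edgeR adjusted p = 2.05e-06), and the filament cappers and activators Capg and Was rose from 1.25 ± 0.219 to 19.1 ± 0.644 FPKM and from 0.657 ± 0.025 to 4.65 ± 0.602 FPKM. Pfn2, the neuronal profilin, fell from 86.6 ± 1.13 to 51.7 ± 2.04 FPKM. Of 22 tested intermediate filaments 8 rose and 7 fell. Vim, vimentin of glia and mesenchymal cells, had 8.16, 6.21 and 10.3 FPKM at day 0 and 148, 148 and 149.5 FPKM at day 3 (log2 fold change 4.12, SE 0.27, edgeR adjusted p = 3.22e-06), and Nes, nestin of progenitors and reactive astrocytes, rose from 1.67 ± 0.297 to 19.6 ± 1.1 FPKM. The summed level of the family was 2980 ± 85.4 FPKM at day 0 and 3243 ± 12.6 FPKM at day 3 (SD, n = 3), although Gfap and the neurofilaments moved in opposite directions.

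Septins, GTP-binding filaments at membranes, also divided: of 11 tested, with symbols restored from gene IDs, Sept2, Sept9, Sept10 and Sept11 rose and Sept3, Sept4, Sept5, Sept6 and Sept8 fell. Sept11 rose from 3.27 ± 0.0407 to 12.4 ± 0.275 FPKM (log2 fold change 1.87, SE 0.14, edgeR adjusted p = 5.85e-06). Sept3, a neuronal septin, fell from 54.3 ± 2.53 to 27.7 ± 0.721 FPKM (log2 fold change -1.02, SE 0.12, edgeR adjusted p = 1.61e-04). Among calcium-dependent membrane proteins, 9 of 10 tested annexins and 8 of 11 tested S100 proteins rose. Anxa2 had 18, 15.4 and 14.4 FPKM at day 0 and 113, 110.1 and 114 FPKM at day 3 (log2 fold change 2.77, SE 0.19, edgeR adjusted p = 4.28e-06). S100a11 had 6.76, 10.4 and 7.55 FPKM at day 0 and 237, 222 and 222 FPKM at day 3 (log2 fold change 4.74, SE 0.35, edgeR adjusted p = 7.25e-06), without overlap in either gene. S100b, the abundant astrocyte form, had 555, 436 and 456 FPKM at day 0 and 358, 367 and 371 FPKM at day 3 and was not called (log2 fold change -0.45, SE 0.25, edgeR adjusted p = 0.183). Lgals3, a galectin of phagocytes, rose from 1.08 ± 0.279 to 107 ± 11.5 FPKM.

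Matrix and adhesion families were among those with the highest medians. Of 14 tested thrombospondins, tenascins and CCN proteins 13 rose, with a median of 2.59, and of 11 small leucine-rich proteoglycans 10 rose, with a median of 2.17. The first group went from a summed 30.6 ± 0.98 to 264 ± 1.61 FPKM and the second from 56.1 ± 3.63 to 371 ± 5.62 FPKM (SD, n = 3). Cyr61, a CCN protein induced by stretch and serum, had 2.87, 3.52 and 3.21 FPKM at day 0 and 75.6, 75.2 and 76.1 FPKM at day 3 (log2 fold change 4.51, SE 0.14, edgeR adjusted p = 7.44e-08). Tnc, tenascin C of wounds and developing tissue, had 0.877, 0.824 and 0.945 FPKM at day 0 and 28.4, 26.7 and 27.1 FPKM at day 3 (log2 fold change 4.90, SE 0.11, edgeR adjusted p = 3.33e-08). Dcn, decorin, which binds collagen and TGF-beta, had 17.4, 17.8 and 17.9 FPKM at day 0 and 212, 219 and 218 FPKM at day 3 (log2 fold change 3.56, SE 0.12, edgeR adjusted p = 9.39e-08). In each of these genes the lowest day 3 library was many times the highest day 0 library.

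Of 25 tested integrins, the receptors that anchor cells to matrix, 20 rose, and of 11 laminins of the basement membrane 8 rose. Itga5, the fibronectin receptor chain, rose from 0.766 ± 0.0713 to 24.7 ± 0.865 FPKM (log2 fold change 4.96, SE 0.14, edgeR adjusted p = 6.22e-08), Itgb1 from 17 ± 1.31 to 59.3 ± 1.2 FPKM and Lamb1 from 1 ± 0.15 to 8.58 ± 0.382 FPKM. Genes of hyaluronan moved in both directions. Cd44, the hyaluronan receptor, rose from 1.11 ± 0.167 to 9.59 ± 0.468 FPKM and Cemip, which starts its breakdown, from 0.535 ± 0.0788 to 5.08 ± 0.212 FPKM. The perineuronal net genes Hapln4, Bcan and Acan fell from 99.3 ± 8.12 to 35 ± 0.695 FPKM, from 46.6 ± 8.03 to 19.5 ± 0.175 FPKM and from 4.62 ± 0.344 to 2.38 ± 0.257 FPKM. Of 20 tested genes of this family 10 rose and 6 fell, and its summed level was 223 ± 3.46 FPKM at day 0 and 154 ± 1.83 FPKM at day 3 (SD, n = 3).

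Proteases and their inhibitors rose together. Of 13 tested cathepsins, most of them lysosomal, 10 rose and 3 did not pass the test, and the family went from 549 ± 29.8 to 2526 ± 39.5 FPKM (SD, n = 3). Ctsz had 42.2, 38.3 and 40.3 FPKM at day 0 and 266, 267 and 256 FPKM at day 3 (log2 fold change 2.65, SE 0.19, edgeR adjusted p = 5.64e-06), and Ctsc, which activates leukocyte serine proteases, rose from 1.38 ± 0.0446 to 13.2 ± 0.601 FPKM. Of 23 tested serpins 19 rose and 3 fell, and the summed level of the family went from 161 ± 10.2 to 1471 ± 34.3 FPKM, most of it Serpina3n (43 ± 2.99 to 1140 ± 27.3 FPKM). The table holds 63 serpins, so these calls describe the tested members alone. Members silent at day 0 passed the count filter only through libraries after day 0, which favours a call as higher. Timp1, the inhibitor of metalloproteinases, had 0.451, 0.321 and 0.246 FPKM at day 0 and 81.9, 86.1 and 85.5 FPKM at day 3 (log2 fold change 7.85, SE 0.46, edgeR adjusted p = 1.64e-06). Its day 0 values were all under 0.5 FPKM and far under those of day 3. Serpini1, neuroserpin, fell from 6.68 ± 0.273 to 3.38 ± 0.204 FPKM.

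In the edgeR fit of all 9 libraries, MS4A proteins and Siglecs had the highest medians of the families described. Over the alternatives to this fit the medians were 1.24 to 5.07 for MS4A proteins and 1.17 to 4.16 for Siglecs and paired Ig receptors. The galectin median never lay under 1.78, so this order did not hold in every alternative. All 8 tested MS4A proteins, membrane proteins of myeloid cells and lymphocytes, rose, with a median of 4.48; 11 further members in the table were not tested. Of 20 tested Siglecs and paired Ig receptors 16 rose and 1 fell, with a median of 3.65. Of 17 tested C-type lectins 13 rose and 2 fell, with a median of 2.04, while their summed level was 63.3 ± 1.98 FPKM at day 0 and 67.8 ± 3.28 FPKM at day 3 (SD, n = 3). Members silent at day 0 passed the count filter only through libraries after day 0, so these counts describe the tested members alone. Leukocyte markers rose as well (summed level 28.0 to 34.6 FPKM at day 0 and 644 to 652 FPKM at day 3), and their part in these results was not tested. Ms4a6d, a macrophage member, had 0.233, 0.273 and 0.416 FPKM at day 0 and 13.5, 12.4 and 12.8 FPKM at day 3 (log2 fold change 5.35, SE 0.21, edgeR adjusted p = 1.82e-07). Clec7a, the beta-glucan receptor, rose from 0.171 ± 0.102 to 5.3 ± 0.493 FPKM and Cd300lf, a lipid-binding receptor of myeloid cells, from 0.0176 ± 0.00789 to 3.28 ± 0.239 FPKM. Mag, the Siglec of myelin, was the abundant member of its family and fell from 119 ± 12.8 to 88.3 ± 1.25 FPKM. Among transcription factors of inflammation, 13 of 18 NF-kB subunits and inhibitors and 12 of 15 interferon regulatory and STAT factors rose. Nfkbia, the inhibitor that NF-kB induces, rose from 18.7 ± 1.55 to 50.3 ± 0.537 FPKM, Stat3 from 6.84 ± 0.321 to 16.6 ± 0.117 FPKM (log2 fold change 1.23, SE 0.18, edgeR adjusted p = 4.87e-04) and Irf8, the factor of microglia and monocytes, from 0.623 ± 0.0613 to 4.66 ± 0.128 FPKM.

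Some of the largest ratios belonged to genes close to silent at day 0. Of 52 tested genes without any day 0 count 50 were called higher, which their passing the count filter without day 0 counts favours. Serpina3m, a close relative of Serpina3n whose reads may be shared with it, had 691 counts at day 3, at least 270-fold more than day 0 at a floor of 3 counts over the group. Csf3, the granulocyte growth factor G-CSF, had 289 counts (at least 113-fold), Clec4d, a receptor of myeloid cells, 399 (at least 156-fold), Fgb, the fibrinogen beta chain, 301 (at least 118-fold) and F7, coagulation factor VII, 253 (at least 98.9-fold). Their levels were low, and Csf3 had 0, 0 and 0 FPKM at day 0 and 4.09, 4.42 and 3.98 FPKM at day 3. Among genes with day 0 counts, Sprr1a, a protein of cornified epithelium and of injured sensory axons, had 0.103, 0.157 and 0.423 FPKM at day 0 and 127, 128 and 121 FPKM at day 3 (log2 fold change 9.06, SE 0.36, edgeR adjusted p = 2.19e-07). Arg1, arginase of alternatively activated macrophages, had 0.113, 0.301 and 0.0769 FPKM at day 0 and 67.7, 63.2 and 67.5 FPKM at day 3 (log2 fold change 8.64, SE 0.57, edgeR adjusted p = 3.62e-06). Tgm1, a transglutaminase, rose from 0.04 ± 0.0287 to 23.4 ± 2.2 FPKM, and Saa3, an acute-phase protein, had 2 counts at day 0 and 1297 at day 3, a ratio of 761 (95% interval 210 to 6287, counting error only). Of 17 tested markers of peripheral sensory neurons 11 rose and 2 fell, and their part in the Sprr1a value was not tested.

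Receptors for fast transmitters were mostly lower. Of 25 tested glutamate receptors 20 fell and 5 did not pass the test (80.0%, beside 19.5% of all tested genes), and of 22 GABA and glycine receptors 14 fell. Markers of cord neurons were lower as well (a summed 645 to 664 FPKM at day 0 and 269 to 270 FPKM at day 3), and their part in the receptor and channel results was not tested. Glra1, the adult glycine receptor subunit of motor neuron inhibition, had 41, 53.6 and 51.7 FPKM at day 0 and 6.89, 6.83 and 6.05 FPKM at day 3 (log2 fold change -2.94, SE 0.28, edgeR adjusted p = 3.73e-05). Glrb, its partner, had 34.7, 34.9 and 34.1 FPKM at day 0 and 12.8, 13.1 and 13 FPKM at day 3 (log2 fold change -1.47, SE 0.11, edgeR adjusted p = 7.16e-06). Neither gene had overlapping groups. Grin2b fell from 1.94 ± 0.0868 to 0.619 ± 0.0271 FPKM and Grin1, the shared NMDA receptor subunit, from 23.4 ± 1.5 to 15.9 ± 0.393 FPKM. Of 14 tested acetylcholine receptors 7 fell, among them Chrna2 (from 1.87 ± 0.146 to 0.189 ± 0.0257 FPKM) and the muscarinic receptor Chrm2 (from 10.3 ± 0.416 to 2.63 ± 0.254 FPKM). Of 24 monoamine receptors 13 fell. The serotonin receptor Htr5a fell from 2.4 ± 0.385 to 0.891 ± 0.1 FPKM, while Htr2b, a serotonin receptor outside neurons in many tissues, had 2 counts at day 0 and 266 at day 3, a ratio of 156 (95% interval 42.8 to 1295, counting error only).

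Ion channels fell less uniformly. Of 79 tested potassium channels 42 fell and 9 rose, with a summed level of 1184 ± 65.1 FPKM at day 0 and 614 ± 5.04 FPKM at day 3 (SD, n = 3). Kcnj10, an abundant astrocyte channel that clears potassium, had 232, 260.1 and 254 FPKM at day 0 and 215, 217 and 214 FPKM at day 3 and was not called. Of 23 tested calcium channel genes 13 fell, among them Cacna2d3 (from 26.5 ± 2.55 to 8.24 ± 0.55 FPKM) and Cacng2, which traffics AMPA receptors (from 26 ± 0.993 to 10.5 ± 0.455 FPKM). Of 16 tested synaptotagmins, the calcium sensors of release, 10 fell. Syt11 fell from 106 ± 4.22 to 62.1 ± 0.46 FPKM and Syt7 from 27.2 ± 3.6 to 11.4 ± 0.221 FPKM, and Syt2 had 100, 92.2 and 35.7 FPKM at day 0 and 9.14, 8.01 and 30.7 FPKM at day 3, with the third library of each day lying between the other 2 of its day and the opposite day, yet without overlap (log2 fold change -2.30, SE 0.55, edgeR adjusted p = 0.00826).

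Log2 fold changes spread most widely, among channel families, in sodium channels, with 5 of 13 rising and 5 falling. Scn4b, Scn2b and Scn8a, of central axons and neurons, fell from 127 ± 12.8 to 42.2 ± 1.12 FPKM, from 13 ± 0.512 to 4.36 ± 0.153 FPKM and from 14.7 ± 0.997 to 5.25 ± 0.131 FPKM. Scn10a, the Nav1.8 channel of nociceptive sensory neurons, had 0.00649, 0.00989 and 0 FPKM at day 0 and 9.11, 8.77 and 9.37 FPKM at day 3, or 2 counts against 2847, a ratio of 1670 (95% interval 462 to 13792, counting error only). Scn11a, the Nav1.9 channel of the same neurons, had 2 counts against 1048, a ratio of 615 (170 to 5081). TRP channels divided likewise, with 8 of 17 rising and 6 falling, or 3 falling without day 0 replicate 3, day 3 replicate 1 or day 3 replicate 2. Trpv1, the capsaicin receptor, rose from 0.0245 ± 0.0124 to 1.43 ± 0.208 FPKM and Trpa1 from 0.0664 ± 0.0216 to 1.12 ± 0.118 FPKM, and Trpm2 fell from 4.94 ± 0.0496 to 2.14 ± 0.0946 FPKM. Of 28 purinergic receptor and ectonucleotidase genes 12 rose (42.86%) and 8 fell (28.57%), beside 24.8 and 19.5% of all tested genes. P2ry6, a microglial uridine nucleotide receptor, rose from 1.74 ± 0.252 to 20.7 ± 0.534 FPKM, P2rx3 of sensory neurons from 0.447 ± 0.17 to 3 ± 0.326 FPKM, and Entpd3 fell from 19.4 ± 1.4 to 8.59 ± 0.676 FPKM.

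Markers of peripheral sensory neurons, whose cell bodies lie in the dorsal root ganglia outside the cord, were read beside these channels. Of 17 tested markers 11 rose, 2 fell and 4 did not pass the test. The list holds 4 of the channels and receptors just described, and of the remaining 13 markers 7 rose. Some, such as Tmem233 and Mrgprd, passed the count filter only through later days. Those that rose included Avil (from 0.0563 ± 0.0229 to 13.9 ± 0.22 FPKM) and Prdm12 (from 0.0369 ± 0.0386 to 3.18 ± 0.128 FPKM). Kcng4, a modifier of potassium channels, fell from 40.3 ± 3.19 to 13.4 ± 0.234 FPKM. Tubb3, a tubulin of all neurons, had 435 FPKM at day 0 and 372 FPKM at day 3, and its call as lower (edgeR adjusted p = 0.0408) was lost without any 1 of the day 0 and day 3 libraries or day 21 replicate 1 (edgeR adjusted p up to 0.124). Calca and Prph, which cord neurons also express, were not called, with 11.5 FPKM at day 0 and 16 FPKM at day 3 for Calca and 47.5 FPKM at day 0 and 69.5 FPKM at day 3 for Prph. In both genes all day 3 libraries lay above all day 0 libraries. Calca was called higher in 9 of the 20 alternatives to this fit and Prph in 3. The summed level of the list was 517 to 571 FPKM at day 0 and 521 to 537 FPKM at day 3, most of it Tubb3. Of 13 tested Schwann cell markers 11 rose, and the list summed to 509 to 521 FPKM at day 0 and 987 to 1008 FPKM at day 3. Ngfr, the low-affinity neurotrophin receptor, had 1.95, 2.25 and 1.68 FPKM at day 0 and 63, 62 and 59.6 FPKM at day 3 (log2 fold change 4.92, SE 0.17, edgeR adjusted p = 9.53e-08). The part of ganglion or root tissue in the sodium channel, TRP and purinergic results was not tested.

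All 11 tested markers of cord neurons fell, with a median log2 fold change of -1.43. Slc6a5, the glycine transporter of inhibitory neurons, had 77.9, 83.3 and 83.4 FPKM at day 0 and 22.5, 22.1 and 22.3 FPKM at day 3 (log2 fold change -1.92, SE 0.29, edgeR adjusted p = 6.52e-04). Chat, the acetylcholine synthesis enzyme of motor neurons, fell from 16 ± 1.89 to 4.87 ± 0.588 FPKM. Of 10 tested leukocyte markers 9 rose. Cd68, of phagocytes, had 3.91, 4.88 and 5.03 FPKM at day 0 and 132, 119.9 and 121 FPKM at day 3 (log2 fold change 4.70, SE 0.15, edgeR adjusted p = 8.89e-08), while the T cell gene Cd3e had counts in 1 day 3 library alone and was not tested. Fibroblast and meningeal markers (9 of 10 rose) summed to 297 to 365 FPKM at day 0 and 708 to 729 FPKM at day 3, and endothelial markers (4 of 6 rose) to 50.9 to 60.6 FPKM and 156 to 164 FPKM. Skeletal muscle markers were low at both days and 7 of 15 fell, with sums of 67.6 to 86.3 FPKM at day 0 and 35.0 to 39.4 FPKM at day 3, most of it Pvalb, a gene of cord neurons too. Of 12 tested glial markers 7 rose. Red blood cell markers summed to 15.2 to 33.7 FPKM at day 0 and 34.0 to 37.0 FPKM at day 3, adipocyte markers stayed under 3 FPKM in sum, and cartilage and bone markers summed to 10.3 to 11.7 FPKM and 7.66 to 9.20 FPKM. The part of these tissues in the family results above was not tested.

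**Figure D5:**
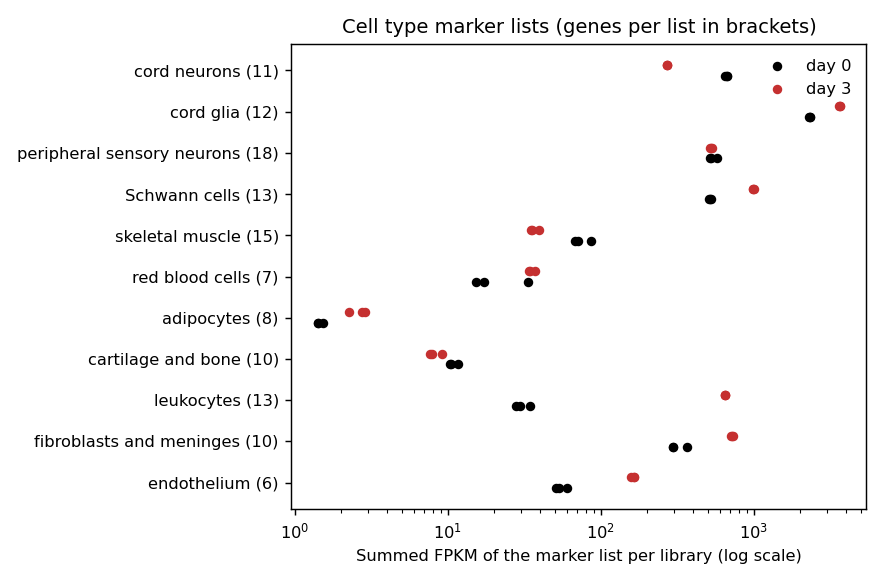
Summed FPKM of 11 cell type marker lists in each library (log scale), with day 0 in black and day 3 in red and the number of listed genes in brackets. Leukocyte, fibroblast and endothelial lists lie higher at day 3 (644 to 652 FPKM against 28.0 to 34.6 FPKM for leukocytes), cord neuron and muscle lists lower, and the sensory neuron sums overlap.

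Of 34 tested neuropeptide precursors 14 fell and 5 rose, and 8 fell without day 0 replicate 1 or 2 or without day 3 replicate 1, and 9 without day 0 replicate 3 or day 3 replicate 3. Gal, galanin, which injured sensory neurons make, had 7.78, 4.99 and 6.78 FPKM at day 0 and 37.3, 32.7 and 39.4 FPKM at day 3 (log2 fold change 2.42, SE 0.35, edgeR adjusted p = 4.73e-04). Adcyap1, the precursor of PACAP, rose from 11 ± 1.71 to 18.7 ± 1.42 FPKM and the endothelial peptide Edn1 from 0.737 ± 0.295 to 5.04 ± 0.362 FPKM. Cck fell from 58.1 ± 0.967 to 24 ± 2.54 FPKM, Tac2 from 44.2 ± 5.53 to 22.4 ± 0.973 FPKM and Chga, a granule protein, from 296 ± 12.2 to 134 ± 1.22 FPKM. Penk and Npy, of dorsal horn interneurons, were not called, with 79 FPKM at day 0 and 77.5 FPKM at day 3 for Penk and 33.5 FPKM at day 0 and 30.4 FPKM at day 3 for Npy.

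HOX genes, which keep the positional identity of the cord along its length, were lower or not called. Of 32 tested, 14 fell and 18 did not pass the test. Grouped by paralogue number, a grouping made after the values were seen, 1 of 11 in groups 1 to 4 fell, 5 of 11 in groups 5 to 8 and 8 of 10 in groups 9 to 11. Their medians were -0.10, -0.64 and -0.97, and the summed level of groups 9 to 11, which mark lower thoracic and lumbosacral cord, went from 136 to 71.4 FPKM. Hoxd10 had 7.75, 7.83 and 7 FPKM at day 0 and 1.64, 1.84 and 1.88 FPKM at day 3 (log2 fold change -2.12, SE 0.16, edgeR adjusted p = 6.55e-06). Hoxc10 had 43.1, 51.4 and 54.5 FPKM at day 0 and 25.8, 24 and 25.9 FPKM at day 3 (log2 fold change -1.03, SE 0.13, edgeR adjusted p = 1.70e-04). All day 3 values of both lay under the day 0 values. The sources used here do not say whether both groups were cut from the same segments, and segment and time cannot be told apart.

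Signalling and junction families contained members of several cell types. Of 14 tested KLF factors 9 rose, led by Klf5 (from 0.923 ± 0.294 to 7.51 ± 0.853 FPKM), Klf2 of endothelium (from 6.85 ± 0.344 to 28.2 ± 0.406 FPKM) and Klf4 (from 1.27 ± 0.14 to 4.82 ± 0.321 FPKM). Of 17 SOX factors 8 rose (47.06%) and 3 fell (17.65%, near the 19.5% of all tested genes). Sox18, of vessels, rose from 6.26 ± 0.594 to 24.1 ± 0.248 FPKM, and Sox1 fell from 2.35 ± 0.439 to 1.01 ± 0.0641 FPKM. In the Notch pathway the endothelial genes Notch4 and Dll4 rose from 0.894 ± 0.0976 to 3.35 ± 0.172 FPKM and from 1.15 ± 0.235 to 3.94 ± 0.0197 FPKM, and Dner, a neuronal ligand, fell from 29.4 ± 1.46 to 16.7 ± 0.747 FPKM. Of 22 ephrins and Eph receptors 6 rose (27.3%, near the 24.8% of all tested genes) and 9 fell (40.9%, beside 19.5%). Efnb1 rose from 2.47 ± 0.125 to 12.4 ± 0.138 FPKM and Efna3 fell from 20.6 ± 0.562 to 9.02 ± 0.318 FPKM. Among connexins and pannexins, the astrocyte gene Gja1 rose from 101 ± 3.17 to 141 ± 3.38 FPKM, while the neuronal genes Gjd2 and Panx2 fell from 7.68 ± 1.14 to 2.35 ± 0.163 FPKM and from 50.3 ± 6.89 to 17.4 ± 0.253 FPKM. Aqp1, a water channel of choroid plexus and small sensory fibres, had 0.19, 0.193 and 0.281 FPKM at day 0 and 23.1, 23.6 and 22.5 FPKM at day 3 (log2 fold change 6.65, SE 0.18, edgeR adjusted p = 5.12e-08), with day 0 values close to 0.

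Metabolic genes divided by pathway. Of 21 tested enzymes of the tricarboxylic acid cycle 11 fell and 1 rose, with a median of -0.48. Sdha, of succinate dehydrogenase, had 134, 127 and 127 FPKM at day 0 and 79.7, 76.4 and 79.7 FPKM at day 3 (log2 fold change -0.77, SE 0.08, edgeR adjusted p = 6.07e-05), and Mdh1 fell from 172 ± 24.1 to 94.1 ± 5.96 FPKM. Of 20 glycolytic enzymes 9 fell and 3 rose, or 5 rose without day 21 replicate 2. The 3 were the hexokinases Hk2 (from 0.585 ± 0.0737 to 5.26 ± 0.159 FPKM) and Hk3 (from 0.273 ± 0.15 to 2.99 ± 0.304 FPKM) and the lactate dehydrogenase Ldha, which had 25.8, 20.6 and 20.6 FPKM at day 0 and 71.4, 73.1 and 73.9 FPKM at day 3 (log2 fold change 1.65, SE 0.17, edgeR adjusted p = 5.42e-05). Eno2, the neuronal enolase, fell from 55.1 ± 6.7 to 25.8 ± 0.312 FPKM. Of 22 glucose and monocarboxylate transporters 11 rose. Slc2a1, the glucose transporter of the blood-brain barrier, had 37.2, 36.9 and 39.6 FPKM at day 0 and 93.7, 91.7 and 94.8 FPKM at day 3 (log2 fold change 1.25, SE 0.09, edgeR adjusted p = 6.55e-06), and the lactate exporter Slc16a3 rose from 0.252 ± 0.0176 to 3.82 ± 0.24 FPKM. Both Hk2 and Slc16a3 were under 1 FPKM in each day 0 library.

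Of 26 tested amino acid transporters 13 rose and 4 fell. Slc7a11, the cystine importer that feeds glutathione synthesis, rose from 0.753 ± 0.0971 to 5.57 ± 0.438 FPKM (log2 fold change 2.83, SE 0.15, edgeR adjusted p = 1.17e-06), and Slc7a10, an astrocyte serine transporter, fell from 34.5 ± 0.269 to 21.4 ± 0.458 FPKM. Of 12 tested sodium pump subunits 5 rose and 3 fell, and the regulators Fxyd2 and Fxyd5 rose from 2.22 ± 0.101 to 50.9 ± 9.44 FPKM and from 1.13 ± 0.259 to 12.1 ± 0.32 FPKM. Among aldehyde dehydrogenases, the retinoic acid synthesis enzymes Aldh1a2 and Aldh1a3 rose from 5.58 ± 0.908 to 41.1 ± 2.12 FPKM and from 0.292 ± 0.0311 to 2.6 ± 0.171 FPKM, and Aldh5a1, which degrades GABA, fell from 21.5 ± 2.69 to 10.4 ± 0.298 FPKM.

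In families of the general machinery the counts of calls depended on single libraries, most of all on day 21 replicate 2, which lies outside the comparison. Of 81 tested cytosolic ribosomal protein genes 14 rose (17.3%, below the 24.8% of all tested genes), and 43 rose without day 21 replicate 2, while 9 rose without any 1 of day 0 replicates 1, 2 and 3 or day 3 replicate 3. Their sum was 4024 ± 883 FPKM at day 0 and 6256 ± 98.0 FPKM at day 3 (SD, n = 3), and reads of these genes are shared with many processed copies, so single members are uncertain. Of 77 mitochondrial ribosomal proteins 8 fell (10.4%, below the 19.5% of all tested genes), and 29 without day 21 replicate 2, 5 without day 3 replicate 1 or 2 and 4 without day 3 replicate 3. Of 37 complex I subunits 4 fell (10.8%), and 21 without day 21 replicate 2; 1 or 2 fell without day 0 replicate 1 or any 1 of the day 3 libraries. Of 37 proteasome subunits 3 rose (8.11%), and 11 without day 21 replicate 2; 1 rose without any 1 of the 6 libraries of day 0 and day 3. The immunoproteasome subunit Psmb8 rose from 0.937 ± 0.287 to 4.69 ± 0.234 FPKM (log2 fold change 2.26, SE 0.35, edgeR adjusted p = 6.90e-04), and the hypoxia-associated complex I paralogue Ndufa4l2 from 5.71 ± 0.442 to 18.2 ± 1.01 FPKM (log2 fold change 1.62, SE 0.24, edgeR adjusted p = 6.06e-04).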

How the data were processed

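Polyadenylated RNA of mouse spinal cord was sequenced in 9 libraries, 3 each at day 0, 3 and 21. The authors deposited 1 table with raw counts and FPKM per gene. HISAT2 and StringTie, with no version or setting, and the build name GRCh38 come from the submitters' processing notes, although the deposited loci match mouse GRCm38. The deposited FPKM equalled count per length and library total within 0.000927% over 12001 genes. Symbols of 27 genes that the table shows as dates were restored from gene IDs.

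The deposited counts were tested with edgeR 4.0.16 in R 4.3.3 (TMM scaling, filterByExpr, robust quasi-likelihood fit). All 9 libraries shared 1 estimate of spread (6 residual degrees of freedom), the contrast was day 3 minus day 0, and p-values were adjusted over 16494 genes by Benjamini-Hochberg at 0.05. Standard errors were computed as the absolute log2 fold change over the root of F. The fit was tested on simulated data. Levels are FPKM, with mean ± SD over 3 libraries. For genes with 0 counts at day 0 folds are bounds at 3 counts over the group, and ratios at 1 to 3 counts have exact 95% intervals for counting error only. Overlap of exons was taken from GENCODE on GRCm38, and promoters from RefSeq (GRCm38.p6), which gave an entry for 11902 of the tested genes. Python 3.11.15, pandas 2.3.3 and SciPy 1.17.1 made the tables.

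The members, 71 gene families (1994 genes) and 11 marker lists were chosen with earlier results of these data known. Among called genes, those named were the 10 largest gains and losses in FPKM, the 10 most extreme log2 fold changes in each direction at 10 FPKM or more, the 10 highest without a day 0 count, up to 3 per family and direction with its most abundant member, and the markers. Gm, Rik, pseudogene, haemoglobin and receptor segment symbols were left out. Mcm6, Mt3, Adcyap1, Tac2, Npy, Penk, mt-Nd6, mt-Atp8, Gm10925 and Hsp25-ps1 were named after their values were seen. Alternatives covered scaling, filters, DESeq2 1.42.0, limma 3.58.1, the libraries in the fit, a replicate block and leaving out each library. Day 21 took part in the count filter, the scaling and the estimate of spread, but not in the contrast. Single clustered protocadherins were left out because their reads are shared. Some results are not reported here.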

Additional observations from a re-analysis of the deposited data

How the results depend on the processing

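No direction was reversed among the 383 called genes named by the rule in the 20 alternatives, of which 9 left out a library. Of these genes, 333 kept their call in every alternative that gave a value and 50 lost it in at least 1. Named genes that were not called were not counted for reversal. A filter of 5 FPKM in 3 libraries, which tests fewer genes, gave 1983 genes higher and 1775 lower, 1043 and 411 at 2-fold or more, and 2 called without a day 0 count. Without a filter on low counts 152 genes without a day 0 count were called. Limma on log2(FPKM + 1) gave 1453 higher and 357 lower at 2-fold or more, a pseudocount that compresses low levels. Leaving out 1 library gave 3504 to 5354 genes higher, 2361 to 4891 lower, 2543 to 2750 higher and 982 to 1192 lower at 2-fold or more, 41 to 67 called among the 100 most abundant, 51 to 58 without a day 0 count, and a difference of 1.38 to 3.86 percentage points in the share of the 100 most abundant genes. The highest counts of calls came without day 21 replicate 2. Taken over counts not divided by gene length, the difference in the share of the 100 most abundant genes was 0.497 percentage points, and the groups overlapped. The 6 libraries alone gave 5195 higher and 4771 lower, and DESeq2 gave 4220 and 3572. Replicate numbers did not pair the libraries (correlations of deviations 0.026, -0.0092 and -0.0069), and the replicate block gave 3775 higher and 2814 lower. Without mt-Atp6, an alternative chosen after seeing the data, 85 rather than 43 genes held the first 50% of the gain. Of 71 family medians 11 took another sign in at least 1 alternative. In simulated data for this contrast (16252 genes), 67 genes were changed by 1.5-fold, 67 by 2-fold and 66 by 4-fold. Of these, 8.96%, 41.8% and 90.9% were called, so a gene not called may have changed. The data had a far larger share of called genes (44.3%), which alters the adjusted p cutoff. These rates therefore hold for the simulated setting and do not give the recovery in the data.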
